A study of Mus musculus with 24 samples.

Results

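Errfi1, Epha2 and the EGF receptor pathway were followed through 10 genes: the feedback inhibitor Errfi1, the receptor tyrosine kinase Epha2, the receptors Egfr, Erbb2 and Erbb3, and the ligands Egf, Tgfa, Areg, Ereg and Hbegf. Every probe whose gene name on the array was 1 of these 10 was taken, which gave 22 probes of the 41174 tested and 10 of 27962 gene names. Errfi1 and Epha2 were chosen by their difference between diets in liver, so for them that difference is given as a description without a test. The other 8 were taken for their place in the pathway and not for a diet difference. Colon and liver RNA was compared in 12 female wild-type C57BL/6 mice aged 12 weeks. All dams ate a high-fat diet (HF-low) in which selenium and folate were low, from 7 days before mating until their pups were weaned at about 28 days. Of the female offspring, 6 stayed on that diet (HF-low-low) and 6 moved to one in which both nutrients were sufficient (HF-low-suf), so that neither group had a low-fat diet or a supplemented dam. Each of the 24 two-colour arrays held the colon or liver RNA of 1 mouse in Cy3 against a reference pool in Cy5. The study describes the pool as intestinal and liver RNA of all mice. Values are log2 ratios of sample over reference. Mice were fasted and re-fed before tissue was taken.

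The EGF receptor (Egfr) and its relatives Erbb2 and Erbb3 sit in the plasma membrane and signal as pairs once a ligand is bound, through the MAP kinase and PI3 kinase cascades. Erbb2 has no known ligand and Erbb3 has little kinase activity, so both work as partners. Egf, Tgfa, Areg (amphiregulin), Ereg (epiregulin) and Hbegf are made as membrane-bound precursors and released by proteases. Errfi1 encodes a cytoplasmic protein that binds the kinase domain of active EGF receptors, blocks it and steers the receptor to degradation, and its transcript is induced by EGF receptor signalling itself, by glucocorticoids and by feeding. Epha2 is a receptor for ephrin-A ligands whose transcription also follows MAP kinase activity. In liver, the EGF receptor of hepatocytes serves growth, regeneration and lipid metabolism, and in colon EGF receptor ligands drive renewal and repair of the epithelium.

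The promoters of Errfi1, Epha2 and Areg are shown because each holds the 8-letter cAMP response element TGACGTCA, the site of CREB and ATF factors, just before the start of transcription. In each sequence, 5′ to 3′ on the + strand, the last 150 bases before the start are given, with the element in capitals (RefSeq, build GRCm38.p6).
Errfi1, chr4:150854920-150855069: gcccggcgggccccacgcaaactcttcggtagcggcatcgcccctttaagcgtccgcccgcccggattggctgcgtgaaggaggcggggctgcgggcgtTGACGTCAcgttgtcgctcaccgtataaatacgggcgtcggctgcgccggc
Epha2, chr4:141301071-141301220: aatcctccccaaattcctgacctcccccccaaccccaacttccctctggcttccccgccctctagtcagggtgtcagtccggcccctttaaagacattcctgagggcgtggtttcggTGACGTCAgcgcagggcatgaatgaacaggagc
Areg, chr5:91139449-91139598: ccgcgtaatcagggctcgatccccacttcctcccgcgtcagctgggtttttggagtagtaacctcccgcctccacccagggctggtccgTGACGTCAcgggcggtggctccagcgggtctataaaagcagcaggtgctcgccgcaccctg

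The element reads the same on both strands. It ends 44 bases before the start in Errfi1, 26 bases in Epha2 and 54 bases in Areg. Of the 7 genes with a promoter entry that were searched, 3 held the element in the window from 250 bases before to 50 bases after the start, as did 588 of 32851 promoters of that length (1.79%). Errfi1 had 2 entries, and the element was in 1 of them. The TATAAA letters of a TATA box stood in the Errfi1 and Areg windows and in 13.6% of all windows. Neither the AP-1 letters TGANTCA (7.81% of all windows) nor the glucocorticoid receptor half-site AGAACA (19%) occurred on either strand of the windows of these 7 genes. These are matches of letters, and binding was not measured.

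For 5 of the 10 genes the main probe, the one with the highest mean intensity, was well above background on all 12 livers, and for 7 on all 12 colons. Those of Areg and Ereg were dim on every liver and on most colons, so little can be read from them. In Cy3 the median signal of an array was 3.78 to 7.20 times its background. The reference channel was brighter on colon HF-low-suf replicate 5 (18.1 times background) and liver HF-low-suf replicate 4 (12.75 times) than on the other 22 arrays (5.41 to 7.54 times), and the latter array had 8.75% outlier spots against at most 0.77% elsewhere. Liver HF-low-suf replicate 1 stood apart in adipose markers: their mean log2 ratio was 2.76 there and −1.74 to −0.069 in the other 11 livers. The hepatocyte markers matched the labels, with mean log2 ratios of 1.04 to 1.77 in livers and −4.43 to −3.91 in colons (7 of 8 markers measured).

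Errfi1 (probe A_51_P382393, NM_133753, chr4:149857959-149858018 in build mm7) was measured well above background on every array. In livers of HF-low-low mice its log2 ratio was 1.06, 1.34, 0.055, 0.50, 0.38 and 0.39 in replicates 1 to 6. In livers of HF-low-suf mice it was −0.11, −0.78, −0.35, 0.029, 0.13 and 0.15. The direction here, lower Errfi1 in HF-low-suf liver, is opposite to the one the study gives in most places, though the study gives both. It rests on the dyes and the diets in the labels, and the diets were not checked here against any measured gene. The 2 sets of 6 livers overlapped only because HF-low-low replicate 3 lay below HF-low-suf replicates 5 and 6. The HF-low-low mean of 0.62 ± 0.48 and the HF-low-suf mean of −0.16 ± 0.36 (SD, n = 6 for each) gave a log2 difference of −0.78 (SE 0.23), that is, 1.71-fold lower. On each of the 6 slides, which carried 1 array of each group, the HF-low-suf liver was the lower one, by 0.24 to 2.12 on the log2 scale. The difference was −1.23 over the 3 slides of one scan day and −0.32 over the 3 slides of the other.

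Epha2 (probe A_52_P518997, NM_010139, chr4:140707665-140707724 in build mm7) lies on the same chromosome and was also well above background on every array. Its log2 ratio was 1.66, 1.38, 0.97, 1.09, 1.42 and 0.81 in livers of HF-low-low replicates 1 to 6. In HF-low-suf livers it was 1.12, −0.11, 0.38, 0.035, 0.99 and 0.70. The sets overlapped through 3 of the HF-low-low livers and 2 of the HF-low-suf livers. The means of 1.22 ± 0.32 (SD, n = 6) and 0.52 ± 0.50 (SD, n = 6) differed by −0.70 (SE 0.23), or 1.63-fold lower in HF-low-suf. All 6 slides gave the same sign, with differences from −1.48 to −0.11, and the scan days gave −0.87 and −0.53. Without the liver rich in adipose markers the log2 differences were −0.79 for Errfi1 and −0.82 for Epha2. Hepatocyte marker means overlapped between the diets, at 1.04 to 1.77 in HF-low-low and 1.31 to 1.74 in HF-low-suf livers. In whole tissue, fewer cells of a type and less RNA per cell cannot be told apart.

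**Figure D1:**
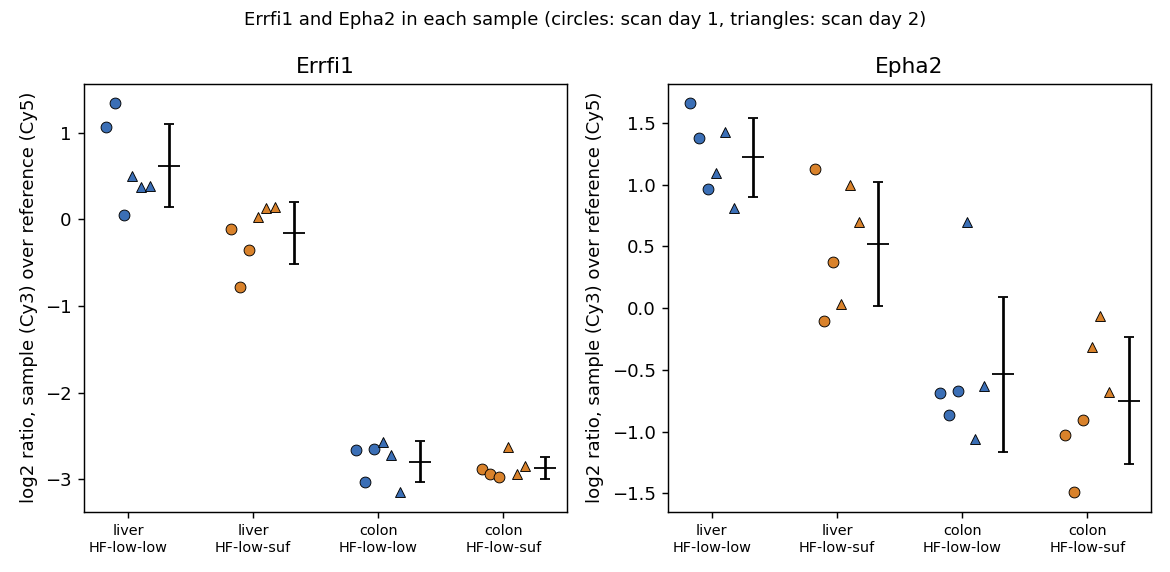
Log2 ratio of sample over reference (y axis) of Errfi1 and Epha2 in each of the 24 samples by tissue and diet (x axis), with circles and triangles for the 2 scan days and bars for the mean and SD of 6 samples. The HF-low-suf livers lie lower than the HF-low-low livers with some overlap, and all 12 colons lie below all 12 livers for Errfi1.

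By its main probe, none of the other 8 genes passed the test for diet in liver. The threshold of the study's methods asks for an unadjusted P below 0.01 together with a fold change over 1.5. Among these 8 main probes limma called 0 at this threshold, and 0 had an unadjusted P below 0.05. Over all 41174 probes, 48 (0.117%) passed that threshold in liver and 0 passed Benjamini-Hochberg adjustment. Egfr, the target of Errfi1, ran from −0.80 to 0.30 (median −0.27) in HF-low-low livers and from −1.01 to 0.27 (median −0.40) in HF-low-suf livers. These ranges overlapped almost fully, and the difference was −0.073 (95% interval −0.57 to 0.42 by limma, exact permutation P = 0.779). Erbb2 differed by 0.081 and Erbb3 by −0.044.

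Of the ligands in liver, Tgfa had the lowest P. It ranged from −0.023 to 0.65 (median 0.10) in HF-low-low and from −0.63 to 0.32 (median −0.0065) in HF-low-suf, a log2 difference of −0.30 (SE 0.17, P = 0.104 by limma and by the two-sided exact permutation test). It was above background in only 4 of 12 livers. Egf differed by 0.19, Areg by 0.090, Ereg by −0.22 and Hbegf by −0.010. Over all 20 probes of these 8 genes, 1 passed the threshold: the Erbb3 probe A_51_P414813 was 0.79 (SE 0.26) higher in HF-low-suf (P = 0.00927 by limma, adjusted P = 1, exact permutation P = 0.0195). That probe was above background on 1 of 12 livers, and the main Erbb3 probe, bright on all of them, did not show this difference.

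In colon, none of the 10 genes was called by its main probe and 0 had an unadjusted P below 0.05, where 69 probes (0.168%) passed the threshold and 0 passed adjustment over the array. Errfi1 lay between −3.15 and −2.57 (median −2.69) in HF-low-low colons and between −2.98 and −2.63 (median −2.91) in HF-low-suf colons. The groups overlapped throughout, with a difference of −0.071 (95% interval −0.36 to 0.22 by limma, exact permutation P = 0.517). Epha2 lay between −1.06 and 0.70 (median −0.68) in HF-low-low and between −1.49 and −0.064 (median −0.79) in HF-low-suf, a difference of −0.21 (95% interval −0.81 to 0.39 by limma, exact permutation P = 0.543). Egfr had the lowest exact P, with colons from −1.51 to −1.22 in HF-low-low and from −1.67 to −1.30 in HF-low-suf, a difference of −0.13 (SE 0.12, exact permutation P = 0.0801). Areg had the largest difference at −0.40 (SE 0.30, exact permutation P = 0.303), but was above background on only 3 of 12 colons.

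**Figure D2:**
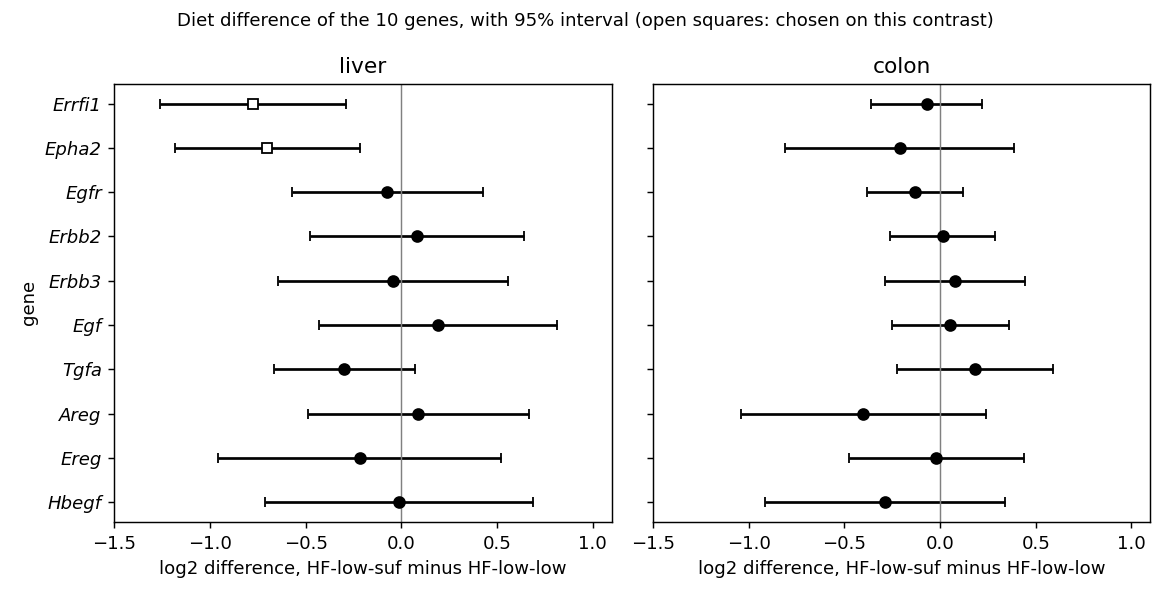
Log2 difference between diets, HF-low-suf minus HF-low-low (x axis), of the 10 genes (y axis) in liver and in colon, with 95% intervals from limma (n = 6 per diet). Open squares mark Errfi1 and Epha2 in liver, which were chosen on that contrast, and every filled point has an interval that includes 0.

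To ask whether diet acted differently in the 2 tissues, the arrays of both were fitted together, each mouse being a random block. No probe of 41174 passed adjustment (0%, 2646 at an unadjusted P below 0.05), and the main probes of the 8 other genes had 0 with an unadjusted P below 0.05. The lowest of these was that of Tgfa, whose diet difference was 0.48 lower in liver than in colon (SE 0.24, adjusted P = 0.784 by limma). The dim Erbb3 probe A_51_P414813 had 0.82 (SE 0.32, adjusted P = 0.664 by limma). As a description, the diet difference in liver minus that in colon was −0.71 (SE 0.25) for Errfi1 and −0.49 (SE 0.35) for Epha2.

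Between liver and colon, Errfi1, Epha2 and Egfr were higher in liver, Erbb2, Erbb3 and Hbegf were higher in colon, and the other 4 ligands did not pass the test. This made 6 of 10 genes called at an adjusted P below 0.05, where 38.3% of all probes were called, 19.4% higher in liver and 19% higher in colon. Counts here and for the lists below are of each gene's brightest probe. The shares are over all probes, dim ones included, so the sets are unlike. Errfi1 lay between −0.78 and 1.34 (median 0.14) in livers and between −3.15 and −2.57 (median −2.86) in colons, with no overlap. It was 8.37-fold higher in liver (log2 difference 3.07, SE 0.12, adjusted P = 1.78e-17 by limma), and the liver exceeded the colon of the same mouse in 12 of 12 mice, by 2.16 to 4.37 on the log2 scale.

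Epha2 lay between −0.11 and 1.66 (median 0.98) in livers and between −1.49 and 0.70 (median −0.68) in colons. The tissues overlapped through colon HF-low-low replicate 4, which was well above the other 11, and through colon HF-low-suf replicate 5, which was just above the lowest liver (−0.064 against −0.11). The liver was higher in 12 of 12 mice, with a mean log2 difference of 1.51 (SE 0.18, 2.85-fold, adjusted P = 5.72e-08 by limma), 1.84 on one scan day and 1.18 on the other. The main Egfr probe (A_52_P106259) ranged from −1.01 to 0.30 in livers and from −1.67 to −1.22 in colons without overlap. Egfr was 2.13-fold higher in liver (log2 difference 1.09, SE 0.12, adjusted P = 2.11e-08 by limma), in 12 of 12 mice.

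The partner receptors ran the other way. Erbb2 lay between 0.94 and 1.41 (median 1.14) in colons and between −2.01 and −0.52 (median −1.43) in livers, where 7 of 12 arrays were above background. The ranges were wide apart, and Erbb2 was 5.74-fold lower in liver (log2 difference −2.52, SE 0.14, adjusted P = 1.2e-14 by limma), in 12 of 12 mice. Its other probe (A_51_P216179) was also lower in liver, by 1.36 (adjusted P = 2.24e-06 by limma), but was above background on 1 of 12 livers, so that this size is uncertain. Erbb3 lay between 0.27 and 1.40 (median 0.74) in colons and between −1.62 and −0.18 (median −1.21) in livers. It was 3.51-fold lower in liver (log2 difference −1.81, SE 0.15, adjusted P = 9.72e-11 by limma), again in 12 of 12 mice and without overlap. Only 1 of its 4 other probes was called, A_51_P414813 at −0.72 (adjusted P = 0.000515 by limma), and these 4 were mostly dim. For Errfi1, Epha2, Egfr, Erbb2 and Erbb3 the exact sign-flip permutation test over the 12 mice gave P = 0.000488, the smallest it can give.

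Hbegf, a ligand of Egfr and of Erbb4 that is induced in stressed epithelium, was between −1.46 and 0.51 (median −0.73) in colons and between −2.41 and −0.41 (median −1.60) in livers. The ranges overlapped, 11 of 12 mice were lower in liver, and the log2 difference was −0.75 (SE 0.22, 1.68-fold, adjusted P = 0.0065 by limma, exact permutation P = 0.0132). It was above background on 12 of 12 colons and 4 of 12 livers. With the signals processed by the scanner software it was −2.16. The differences of Egf (0.042), Tgfa (0.045), Areg (−0.021) and Ereg (−0.066) did not pass the test, with adjusted P from 0.83 to 0.956 by limma. For the last 3, dim in most livers, no difference was detectable at this signal.

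**Figure D3:**
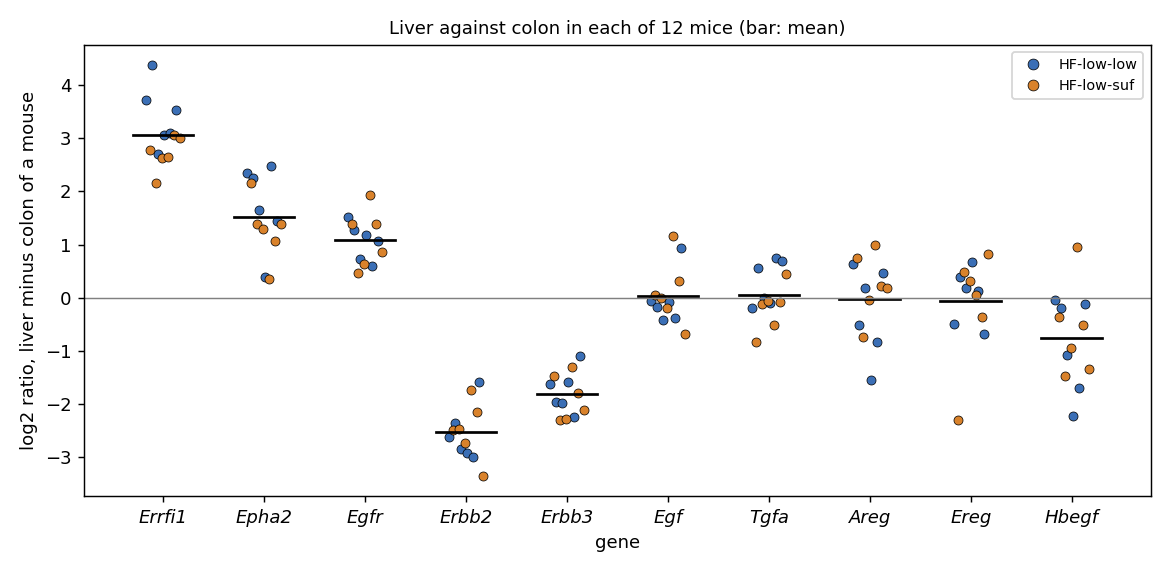
Log2 ratio in liver minus that in colon of the same mouse (y axis) for the 10 genes (x axis), with 1 point for each of 12 mice coloured by diet and a bar for the mean. All 12 points lie above 0 for Errfi1, Epha2 and Egfr and below 0 for Erbb2 and Erbb3, and the points of Egf, Tgfa, Areg and Ereg lie on both sides.

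Egf was on every array far below the reference. Its log2 ratio ran from −4.03 to −3.23 in colons and from −4.18 to −2.35 in livers, although the study describes the reference as pooled from intestine and liver. Only 69 of the 9113 probes that were bright on every array lay below −2 on all 24, as Egf did. Its tissue difference turned with the processing, to −0.44 (adjusted P = 0.000583 by limma) with the processed signals and −0.39 (adjusted P = 0.037 by limma) under median centring. Egf is known to be made mainly in salivary gland and kidney. The 7 skeletal muscle markers were also below the reference on all 24 arrays, at −6.22 to −1.92. What the pool held beyond colon and liver RNA was not tested. Among livers Egf, Erbb2 and Hbegf were each highest on HF-low-suf replicate 4, the array with the bright reference channel (−2.35, −0.52 and −0.41), and next on HF-low-low replicate 6 (−2.67, −0.64 and −0.61), and the part of the arrays in this was not tested.

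The 6 Egfr probes did not give one tissue difference. By the array files, 2 probes in the upstream part of the gene are listed under NM_007912, transcript variant 2, known as a shorter form. The files list 2 probes further downstream under NM_207655, transcript variant 1. Whether the upstream probes also match variant 1 was not tested. The oligonucleotide of the most upstream probe with signal, A_52_P56471 at chr11:16835551-16835610 of build mm7 on the + strand, is printed because it is 1 of the 2 upstream probes with which the larger tissue differences were read.
A_52_P56471: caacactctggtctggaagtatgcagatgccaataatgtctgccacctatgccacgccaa

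With this probe Egfr was 2.40 ± 0.48 (SD, n = 12 mice) higher in liver on the log2 scale, and with A_51_P392242, 3.8 kb further along, 2.70 ± 0.40. At 28.6 kb (A_52_P674338), 30.3 kb (the main probe) and 34.1 kb (A_52_P175190) the differences were 0.87 ± 0.33, 1.09 ± 0.44 and 1.21 ± 0.41. Of these 3, the main probe was above background on all arrays, whereas A_52_P674338 was so on 5 livers and 3 colons and A_52_P175190 on 9 livers and 3 colons, which makes their differences uncertain. The upstream and downstream differences hardly overlapped over mice. Each of the 6 pairs of an upstream and a downstream probe was compared within mice: the upstream difference was larger by 1.19 to 1.83, in 12 of 12 mice for each pair (exact permutation P = 0.000488, adjusted P = 0.000488 over the 6 pairs, the smallest possible). Of these pairs, 4 include 1 of the dim probes. For A_51_P392242 against the main probe, both bright on all arrays, it was larger by 1.61 ± 0.40 (SD, n = 12), from 0.79 to 2.46. A sixth probe, 127.9 kb before the first, was dim on every array. Unequal tissue differences at probes of one gene do not say which transcript accounts for them, and transcripts were not counted separately.

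**Figure D4:**
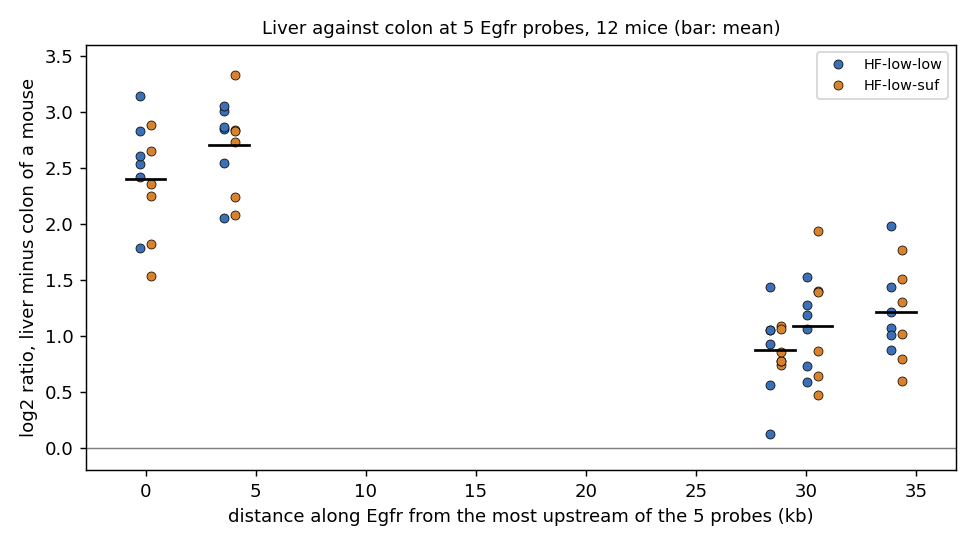
Log2 ratio in liver minus that in colon of the same mouse (y axis) at 5 Egfr probes by their distance from the most upstream of the 5 in kb (x axis), with 1 point per mouse coloured by diet and a bar for the mean of 12 mice. The 2 upstream probes have means of 2.40 and 2.70 and the 3 downstream probes 0.87 to 1.21.

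The wider EGF receptor network was read from 60 listed genes beside the 10, of which 59 were on the array. None was called for diet in colon or in liver by limma. At an unadjusted P below 0.05 there were 3 in colon (Cbl at 0.64, SE 0.29, Spry4 at −0.37, SE 0.17, and Egr1 at −0.73, SE 0.33) and 1 in liver (Cblb at −0.72, SE 0.28), beside 1228 and 877 of all 41174 probes. Cbl and Cblb are ubiquitin ligases that degrade the receptors, Spry4 restrains MAP kinase signalling and Egr1 is an immediate early gene induced by it. Of 12 colons, Cbl was above background on 5 and Spry4 on 1. Cblb was above background on no array, and was called when liver HF-low-suf replicate 4 or replicate 5 was left out (−0.87 each). The median diet difference of the 59 genes was −0.007 in colon and 0.009 in liver, beside −0.007 and 0.005 over all probes. For the diet difference between tissues 0 were called, with 3 at an unadjusted P below 0.05, beside 2646 of all 41174 probes.

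Between tissues, 34 of the 59 were called, 12 higher in liver and 22 higher in colon, beside 38.3% of all probes called, 19.4% and 19% by direction. Of the 59, 40 were above background on at least 6 livers and 48 on at least 6 colons. Of all 41174 probes, 15208 and 18077 were, so the sets differ in brightness. Their median log2 difference was −0.17 beside 0.019 over all probes. By role, negative regulators of the receptor counted 1 higher and 6 lower in liver of 15. Transcriptional targets counted 2 and 4 of 9, adaptors 1 and 3 of 6, and ligand-releasing proteases and their partners 1 and 2 of 5. Kinases, small GTPases and other proteins of the cascades counted 6 and 7 of 19, and ligands 1 and 0 of 4. Mapk3, the MAP kinase ERK1, was lower in every liver (−1.88 to −0.70) than in any colon (0.56 to 1.52), by 2.05 (adjusted P = 3.95e-14 by limma). Spry2, an inhibitor of receptor signalling that is induced by it, was at least 2.79-fold lower in liver, where no array was above background (adjusted P = 2.08e-09 by limma). Lrig3, a membrane protein related to the receptor-degrading Lrig1, was lower by 1.55 (adjusted P = 2.62e-13), and Nrg4, a ligand of Erbb4, was higher by 1.66 (adjusted P = 3.93e-06, above background on 6 of 12 colons).

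Of the 19 other Eph receptors and ephrins, 0 were called for diet in either tissue, and 0 had an unadjusted P below 0.05. For the diet difference between tissues 0 were called, with 1 at an unadjusted P below 0.05, beside 2646 of all 41174 probes. Between tissues 12 of 19 were called, 2 higher in liver and 10 higher in colon (median log2 difference −0.31), beside the 38.3% of all probes, 19.4% and 19% by direction. Ephb3 and Ephb2, which position cells along intestinal crypts, were lower in liver by 2.29 (adjusted P = 1.24e-12 by limma) and 2.06 (adjusted P = 1.29e-10 by limma), with 3 and 2 of 12 livers above background. Epha7 was at least 2.29-fold lower, dim on all livers. Epha3 was at least 9.47-fold higher in liver, dim on all colons (adjusted P = 1.79e-14 by limma).

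Errfi1 varied between livers of one diet by an SD of 0.42 and between colons by 0.19. To ask whether other genes moved with it beyond the diet contrast that chose it, each diet's mean was subtracted and r was taken over the 12 livers, with exact permutations within diets and adjustment over 18 relations (9 genes in 2 tissues). Epha2 gave r = 0.59 (exact permutation P = 0.0383, adjusted P = 0.138; rho = 0.52, P = 0.0752, adjusted P = 0.239). Egfr gave r = 0.65 (exact permutation P = 0.0265, adjusted P = 0.138; rho = 0.71, P = 0.0155, adjusted P = 0.093). Neither passed adjustment. When HF-low-low replicates 1 and 2, whose Errfi1 was farthest from the median, were left out, r was 0.56 for Epha2 and 0.68 for Egfr. Within scan days r was 0.73 and 0.47 for Epha2 and 0.74 and −0.091 for Egfr, the relation of Egfr thus appearing on 1 of the 2 days.

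Errfi1 itself varied little within diets on the second day (SD 0.066, against 0.54 on the other). The other probes of Egfr gave r of 0.73, 0.66, 0.49, −0.032 and −0.22 with Errfi1. The main probes of the remaining 7 genes had r between −0.16 and 0.34 in livers (exact permutation P from 0.289 to 0.831). Their other probes, above background on 0 to 3 of 12 livers, had r from −0.69 (Erbb3, A_51_P414813) to 0.70 (Tgfa, A_52_P555423). The mean of the hepatocyte markers had r = 0.62 with Errfi1 (members from −0.38 for Ttr to 0.72 for Ahsg). That of the bile duct markers had 0.48 (from 0.020 for Cldn4 to 0.67 for Spp1). The part of these cell types in the relations was not tested.

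In colons, samples the choice of genes did not use, different genes had the highest r. Tgfa, itself a ligand of Egfr, gave r = 0.81 (exact permutation P = 0.00514, adjusted P = 0.0925; rho = 0.84, P = 0.00292, adjusted P = 0.0526), 0.72 without HF-low-low replicates 4 and 6, and 0.77 and 0.91 within scan days. Its probe was above background on 6 of 12 colons. Erbb3 gave r = 0.75 (exact permutation P = 0.0117, adjusted P = 0.105; rho = 0.76, P = 0.00898, adjusted P = 0.0808), 0.67 without those 2 colons, and 0.62 and 0.98 within scan days. Erbb2 followed at 0.59 (exact permutation P = 0.0642, adjusted P = 0.193) and Ereg, above background on 1 of 12 colons, at −0.61 (exact permutation P = 0.0384, adjusted P = 0.138). Epha2 had 0.42 and Egfr 0.023. None of the 18 relations passed adjustment. Without HF-low-low replicate 1, a colon, Erbb3 (r = 0.91, adjusted P = 0.0162 by exact permutation) and Tgfa (r = 0.89, adjusted P = 0.0221 by exact permutation) did, and under median centring 5 genes did in colons (Epha2, Egfr, Erbb2, Erbb3 and Hbegf, r from 0.77 to 0.90). The mean of the colon epithelium markers had r = 0.43 with Errfi1 in colons (members from −0.17 for Cdx2 to 0.74 for Car1), that of the bile duct markers 0.072 (from −0.61 for Spp1 to 0.84 for Epcam) and that of the blood cell markers −0.51, and their part in these relations was not tested. Whether the relations differed between tissues was not tested.

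The genes most like Errfi1 over the 12 livers, by r after subtracting diet means among the 15208 probes above background on at least 6 livers, were Tat at 0.94, Pigo at 0.91, Zfpm1 (a partner of GATA factors) at 0.90, Kcnk5 at 0.90 and Vars2 at 0.88. Of those probes 1193 (7.84%) had r of at least 0.6, and in colons 1154 of 18077 (6.38%). Tat, tyrosine aminotransferase, the liver enzyme of tyrosine breakdown known for its induction by glucocorticoids, ran from 2.14 to 2.98 in livers. It followed Errfi1 on one scan day (r = 0.98) and hardly on the other (0.10), and in colons r was 0.59. Tat differed between diets in liver by −0.21 (SE 0.14) and was not called. In colons r was −0.65 for Pigo, a transferase of GPI anchor synthesis, −0.56 for Vars2, −0.55 for Zfpm1 and 0.15 for Kcnk5. On the second scan day r in livers was 0.066 for Pigo, 0.46 for Kcnk5, 0.62 for Vars2 and 0.77 for Zfpm1.

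Because Errfi1 is known to respond to glucocorticoids and feeding, 14 measured genes of a list of 15 with such responses were read beside it. None was called for diet by limma in either tissue or for the diet difference between tissues. For the latter 1 had an unadjusted P below 0.05, beside 2646 of all 41174 probes. Lowest in P were Tsc22d3, a glucocorticoid-induced gene, in liver (−0.56, SE 0.21) and Sgk1, a kinase of the same kind, in colon (−0.47, SE 0.21), each the only one with an unadjusted P below 0.05. Of all 41174 probes, 877 in liver and 1228 in colon were below that P. Over livers 4 of the 14 had r of at least 0.6 with Errfi1: Tat at 0.94, Klf9 at 0.69, Per1 at 0.62 and Pck1 at 0.62. On the scan day on which Errfi1 varied little, these 4 had r between 0.10 and 0.56. The other 10 had r between −0.23 and 0.38, and 12 of the 14 were above 0. Over colons 1 reached 0.6 (Tsc22d3, 0.73).

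Between tissues 12 of these 14 were called, 8 higher in liver and 4 higher in colon (median log2 difference 0.82), beside the 38.3% of all probes, 19.4% and 19% by direction. Higher in liver were G6pc, the last step of glucose release, by 5.24, and Tat by 5.08. Igfbp1, a fasting-induced binding protein, was higher by 6.23, a size that is uncertain because only 1 of 12 colons was above background.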

How the data were processed

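RNA of whole colon and liver of 12 mice was measured on 24 Agilent arrays, grouped by tissue and diet as labelled (n = 6). The intensity values deposited by the authors are mean Cy3 and Cy5 signals and median local backgrounds per spot, read with Feature Extraction 9.5 and neither background corrected nor normalized. Here they were corrected with normexp (offset 50), 1639 control spots of 45018 and outlier spots were left out, and loess was applied within arrays (limma 3.58.1, R 4.3.3). The 43379 other spots gave 41174 probes after repeated spots were averaged. The number and brightness of arrays limit the precision.

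Diets were compared in each tissue by lmFit and eBayes (unadjusted P below 0.01 and fold above 1.5, as the study's methods state). Tissues, and the difference in diet effect, were compared over 24 arrays, the mouse entering as a random block (consensus correlation 0.158, statmod 1.5.0) at a Benjamini-Hochberg adjusted P below 0.05 over all probes. Exact two-sided permutation tests used 924 assignments of mice to diets, 4096 sign flips of tissue differences or 518400 permutations within diets. P-values measure the spread between mice. Where a list gene called between tissues was above background on no array of one tissue, a lower bound of its fold is given. The differences printed for other dim probes, such as those of Areg, Ereg and Cblb, are uncertain in size.

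Named are the 10 genes with all their probes, the probe of highest mean intensity being the main one, list genes past the call for diet, up to 4 per list with the largest called tissue differences, and the 5 genes with the highest r with Errfi1 in livers. List genes with an unadjusted P below 0.05 and r of at least 0.6, and the marker genes at the ends of a range of r, were also named, after their values were seen. A list gene that the rule names is not reported here. The genes, lists and tests were chosen with earlier results of these data known. Promoters came from a RefSeq table of build GRCm38.p6, in which Erbb3 and Ereg have no entry, and Hbegf was not searched. Alternatives were other background corrections, normalizations and probe rules, a replicate block and leaving out arrays. The protein, histone and DNA methylation measurements were not used here. The fits and the permutation test of relations were tested on simulated data.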

Additional observations from a re-analysis of the deposited data

Results flagged for a closer look

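Of 40 sets of 6 samples (10 genes, 2 tissues, 2 diets), 4 held a sample far from the other 5 by Dixon's test, which chance gives in about 1 in 20 groups. Errfi1 was high in colon HF-low-suf replicate 4, at −2.63. Epha2 was high in colon HF-low-low replicate 4, at 0.70, and Areg, at 0.56, was high in that same colon. Ereg was low in liver HF-low-suf replicate 1, at −1.71, the liver with high adipose markers, in which its probe was not above background.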

How the results depend on the processing

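In the alternatives run, the counts of called genes stayed at 0 of 10 for diet in colon and 0 of 8 for diet in liver. They stayed at 0 of 8 for the difference between tissues and at 6 to 7 of 10 between tissues. Areg joined under the Cy3 channel alone (−0.32, adjusted P = 0.0232 by limma), but its probe was dim on every liver and most colons, so this call is uncertain. Egf, lower in liver, joined under processed signals and median centring. The Errfi1 and Epha2 differences in liver ranged from −0.89 to −0.63 and −0.82 to −0.58, and the Hbegf tissue difference from −2.16 to −0.62. Egfr upstream against downstream ranged from 1.54 to 1.82. Without liver HF-low-suf replicates 1 and 4 and colon HF-low-suf replicate 5, chosen after seeing the data, the counts were the same, the network count between tissues was 33, Errfi1 and Epha2 in liver were −0.83 and −0.73, and Egfr upstream against downstream was 1.69 (exact permutation P = 0.00391). Samples of one replicate number share a slide, and their deviations did not all correlate (r from −0.50 to 0.53 between diets in liver), so the number was not taken as a pairing. With it as a block the counts were 0, 0, 6 and 0, those of the network 0, 0 and 32, no relation passed, and r with Errfi1 in livers was 0.76 for Epha2 and 0.73 for Egfr. Network counts were 0 to 1 for diet in liver when single arrays were left out, and 19 between tissues with a fold above 1.5 asked for as well (34 without). The share of all probes passing with that fold was not counted. Relations passing adjustment were 5 in colons under median centring and 0 to 2 in colons when single arrays were left out (2 without HF-low-low replicate 1). In livers none passed with diet means subtracted. Without subtracting them r of Epha2 in livers was 0.79, which uses the contrast that chose both genes and so is no test. Tsc22d3 was called in liver with the Cy3 channel alone (−0.62).

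Signs turned for values that were not called. Given are turns in which the value moved by more than its standard error, and smaller moves across 0, such as Erbb2 for diet in liver without the 3 arrays (−0.11), are not listed. Under median centring these were Errfi1 (0.083) and Egfr (0.035) for diet in colon, Egf between tissues (−0.39) and r of Egf in colons (0.57). With the mean over probes they were Egfr for diet in colon (0.00055), Erbb2 for the difference between tissues (−0.27) and r of Erbb3 in livers (−0.34). With array weights, Egfr (0.17) and Hbegf (0.43) turned for diet in liver. Egf between tissues was also −0.24 with plain subtraction, −0.19 with no background correction, −0.44 with processed signals and −0.19 with Cy3 alone, and passed adjustment with processed signals (adjusted P = 0.000583) and median centring (adjusted P = 0.037). With processed signals Ereg (0.13) turned for diet in liver, Ereg (0.51) and Hbegf (−0.21) for the difference between tissues, and r of Hbegf in livers (−0.13). Ereg also turned without the 3 arrays (diet in liver 0.16, tissues 0.17, difference between tissues 0.28) and without the mouse of HF-low-suf replicate 1 (when single mice were left out, −0.16 to 0.15 for tissues and −0.40 to 0.23 for the difference between tissues). In colons r with Errfi1 turned with the replicate block for Epha2 (−0.20), Egf (0.38) and Areg (−0.35), and without HF-low-low replicate 4 for Egf (0.50, with −0.29 to 0.50 over single colons left out) and Areg (−0.35). The cause of these turns was not tested.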

Other observations

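Colon HF-low-low replicate 4, flagged above for Epha2 and Areg, held the highest value of 4 of the 10 genes among the 12 colons: Errfi1 (−2.57, next −2.63), Epha2 (0.70, next −0.064), Areg (0.56, next −0.19) and Hbegf (0.51, next −0.19). Epha2 and Areg thus entered this count through the values that flagged the colon, and Areg was above background on 3 of 12 colons. Egf was lower there, at −4.03, than in the other 11 colons (lowest −3.615). Of 9 transcriptional targets of the pathway, Fos (0.74, next −0.093) and Ier3 (0.26, next 0.059) were highest there too, and the other 7 were not. Of 40648 probes, 7.27% were highest there.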
